A study of Mus musculus with 26 samples.

Results

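The comparison described here asks whether the loss of TNF receptor 2 in regulatory T cells goes with a different change in the regulatory T cells (Treg) of the inflamed central nervous system (CNS) than in the conventional CD4+ T cells (Tconv) taken from the CNS of the same kind of mice. It is the difference of 2 differences: the log2 difference icKO minus Ctrl in CNS Treg, less the log2 difference icKO minus Ctrl in CNS Tconv. A positive value means that the icKO minus Ctrl difference lay higher in Treg than in Tconv, and a negative value that it lay lower. The 14 libraries of the 4 CNS groups were chosen by their labels, of 26 libraries in the whole series: 3 Treg Ctrl, 3 Treg icKO, 4 Tconv Ctrl and 4 Tconv icKO.

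All mice were C57BL/6 with experimental autoimmune encephalomyelitis (EAE), a T cell-driven model of multiple sclerosis, and cells were taken at day 14. Ctrl mice carried Foxp3Cre-ERT2, a tamoxifen-inducible Cre expressed from the Foxp3 locus. The icKO mice were Foxp3Cre-ERT2 x Tnfrsf1bFlox/Flox, so that the allele recombines in cells that express Foxp3 and Tconv cells keep a Tnfrsf1b gene that Cre was not directed at. Both genotypes received tamoxifen from day 7 to day 14, so tamoxifen and the Cre allele are shared by all 4 groups. Treg were CD4+Foxp3+ and Tconv CD4+Foxp3-, and the labels number the libraries by mouse.

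Tnfrsf1b encodes TNFR2, the TNF receptor that binds the membrane form of TNF with high affinity and signals through TRAF2 to NF-kB without a death domain. It is abundant on Treg, where its signals support proliferation, survival and the maintenance of Foxp3. Tconv acquire TNFR2 on activation, and in EAE the CNS Tconv include the encephalitogenic effector cells that the Treg hold in check.

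Library totals ran from 12.9 to 18.5 M assigned reads, and 12623 genes passed the filter on low counts. The codes in the deposited names of 5 Tconv libraries (Ctrl replicates 3 and 4, icKO replicates 2, 3 and 4) go with the other genotype than the labels do. Each of the 5 codes is shared with a CNS Treg library labelled with that other genotype. The labels were used throughout, and results are also given without these 5 libraries, which leaves 2 Ctrl and 1 icKO Tconv libraries, the lone one being assumed to vary like the other groups. T cell markers were present in all 14 libraries, with Cd3e between 856 and 1322 counts per 1 M reads (CPM). Cd3e lay at 856 to 919 CPM in Treg Ctrl and at 1040 to 1228 CPM in Treg icKO. Of 8 T cell markers 2 were higher and 0 lower in Treg icKO at an unadjusted p under 0.05 (background 1.66% and 1.58%). The Treg libraries also held myeloid transcripts: the summed level of 20 monocyte and macrophage markers was 7663 to 10930 CPM in Treg and 784.5 to 1868 CPM in Tconv, with overlapping Ctrl and icKO ranges in Treg. Lyz2, the lysozyme of macrophages and neutrophils, stood at 413 to 1467 CPM in Treg and at 0 to 8.97 CPM in Tconv. In the Tconv libraries left without the 5, the monocyte and macrophage sum was 841.5 and 784.5 CPM in Ctrl and 1322 CPM in icKO. The median of these markers between cell types was then -1.01, against -0.38 with all 14 libraries. The part of myeloid RNA in the results without the 5 libraries was not tested.

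No gene passed the test of the difference between the 2 cell types at an adjusted p under 0.05 (0 of 12623 genes, 0%, edgeR quasi-likelihood test with Benjamini-Hochberg adjustment, smallest adjusted p = 0.24). At an unadjusted p under 0.05 there were 1245 genes (9.86%), of which 631 were positive (5%) and 614 negative (4.86%). A limma voom fit of the same libraries also called 0 genes, with 1306 at an unadjusted p under 0.05 (10.3%), and DESeq2 called 113 of 9652 (1.17%). When the draining lymph node libraries entered the fit to share one estimate of the spread, with the library labelled Tconv_dLN_icKO replicate 3 left out (25 libraries), 24 of 13500 genes were called (0.178%), 15 positive (0.111%) and 9 negative (0.0667%). That library was left out as one that stands apart in the whole series, and with it kept 0 genes were called.

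The calls on each side of the comparison were unequal in number, with 3 libraries per genotype in Treg and 4 in Tconv. The counts of calls do not measure the size of the 2 differences. In Treg, 0 genes passed for icKO against Ctrl (0%), with 410 at an unadjusted p under 0.05 (3.25%). DESeq2 and limma also called 0, limma with 365 at an unadjusted p under 0.05 (2.89%), and the fit of 25 libraries called 0 with 915 (6.78%). In Tconv, 29 genes passed (0.230%): 11 rose and 18 fell, or 5 and 14 with DESeq2's size factors in place of TMM. That count ran from 5 (without Tconv icKO replicate 1) to 53 (without Treg icKO replicate 2) when 1 library was left out, and it was 419 in the fit of 25 libraries (3.10%), with 213 rises (1.58%) and 206 falls (1.53%), and 422 of 12161 by DESeq2 (3.47%). Over all tested genes the Tconv icKO libraries lay wholly above Ctrl for 599 (4.75%) and wholly below for 547 (4.33%), and the Treg icKO libraries above for 503 (3.98%) and below for 488 (3.87%). The 24 genes called in the fit of 25 libraries all passed an unadjusted p of 0.05 with 14 libraries, and 22 of them had opposite signs in Treg and Tconv. They were called for a difference between cell types in a fit that holds the same 14 libraries, so both counts are favoured by that choice. The Tconv difference was the larger in absolute size for 17 of the 24. The comparison of cell types and the Tconv difference use the same 8 Tconv libraries, so their values are not independent of each other. Leaving out Treg Ctrl replicate 2 or Tconv icKO replicate 1 took the 24 calls to 0, leaving out Tconv Ctrl replicate 3 to 1 and Treg icKO replicate 2 to 4. Without Tconv icKO replicate 3 or 4 there were 14 and 15. Leaving out Treg Ctrl replicate 3 gave 105 calls, Treg icKO replicate 1 gave 245, Tconv Ctrl replicate 4 gave 263, Treg icKO replicate 3 gave 56 and Tconv Ctrl replicate 2 gave 41.

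**Figure D1:**
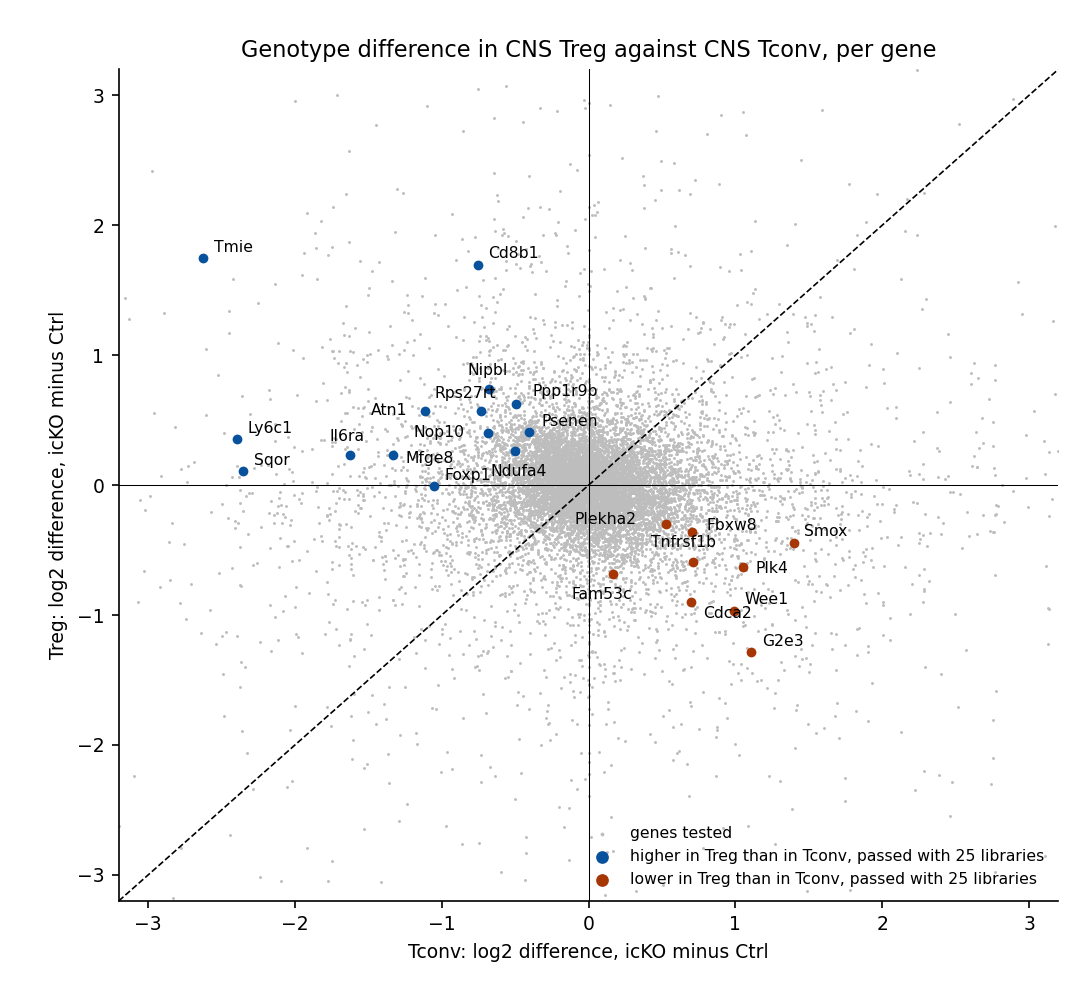
Each gene's log2 difference icKO minus Ctrl in CNS Treg (vertical axis) against that in CNS Tconv (horizontal axis), edgeR fit of 14 libraries, with 23 genes called in the fit of 25 libraries labelled and a dashed line where both differences are equal. Genes above the line have a positive difference between cell types (Ly6c1, Sqor, Cd8b1) and genes below it a negative one (Tnfrsf1b, Plk4, Smox), and 368 genes lie outside the plotted range of 3.2 on either axis.

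Tnfrsf1b itself (chr4:145213463-145246870, minus strand, GRCm38) differed in opposite directions in the 2 cell types. It stood at 448, 693 and 658 CPM in the Treg Ctrl libraries and at 500.2, 354 and 341 CPM in Treg icKO. In Tconv it stood at 222, 169, 192 and 223 CPM in Ctrl and at 342.5, 255, 378 and 341 CPM in icKO. The Treg groups overlapped through 1 library of each genotype, while all 4 Tconv icKO libraries lay above all 4 Ctrl libraries. The log2 difference was -0.59 (SE 0.20) in Treg and 0.71 (SE 0.18) in Tconv, and the difference between cell types was -1.30 (SE 0.27). Its adjusted p was 0.288 by edgeR in the fit of 14 libraries, 0.0243 in the fit of 25 and 0.00295 by DESeq2. The Tconv difference alone had an adjusted p of 0.104 in the fit of 14 libraries and 0.0091 in the fit of 25. A gene-level count includes reads from all exons, so the Treg value does not measure how much of the floxed part was lost. The Treg libraries also held myeloid transcripts, and the part of myeloid RNA in the Tnfrsf1b levels was not tested.

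Foxp3, the transcription factor that defines Treg, was found where the sort put it. It reached 23.5, 23.4 and 59.6 CPM in Treg Ctrl and 68.1, 31.4 and 48.2 CPM in Treg icKO, and its groups overlapped. In Tconv it lay between 0.109 and 1.48 CPM in all 8 libraries, from 0.369 to 1.48 CPM in Ctrl and at 0.109, 0.377, 0.328 and 0.326 CPM in icKO, of which 3 lay below every Ctrl library. The difference between cell types was 2.04 (SE 0.71, edgeR adjusted p = 0.403), on Tconv levels of at most 1.48 CPM.

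Naive and central T cell genes lay on the positive side of the comparison. These include receptors and quiescence factors of resting T cells, which are shut down on activation: Ccr7 guides cells to lymph nodes, Foxp1, Klf2, Tcf7 and Lef1 are transcription factors of the resting state, and Il6ra is the IL-6 receptor. Of 24 listed genes, 14 were positive at an unadjusted p under 0.05 and 0 negative (58.3% against 5% of all genes), and 20 had a positive value. The median was 0.87, against -0.0048 over all genes tested. The list's median was 0.04 in Treg and -0.76 in Tconv. In Tconv 16 members were lower at an unadjusted p under 0.05 (background 6.41%) and 5 passed the adjusted test as falls, among them Ly6c1, Foxp1, Ccr7 and Il6ra. In bulk samples, fewer or more cells of a type and less or more RNA per cell cannot be told apart. Without the 5 Tconv libraries the list's median was 0.73, and fewer members passed an unadjusted p of 0.05, with 1 Tconv icKO library left. Without Treg icKO replicate 2, 9 members were positive at that p.

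Ly6c1, a GPI-linked surface protein of the Ly6 family (chr15:75044018-75048830, minus strand), had the smallest p of the comparison. Its levels were 195, 290.1, 171 and 216 CPM in Tconv Ctrl and 29.9, 70.7, 35.1 and 30.2 CPM in Tconv icKO. In Treg they were 59.4, 39.9 and 30.1 CPM in Ctrl and 58.9, 59.9 and 46.2 CPM in icKO. The Tconv groups stood far apart and the Treg groups overlapped. The log2 difference was 0.35 (SE 0.33) in Treg and -2.39 (SE 0.30, adjusted p = 0.00833, edgeR) in Tconv, giving 2.75 (SE 0.44) between cell types, with an adjusted p of 0.24 in the fit of 14 libraries and 0.0243 in the fit of 25. Ly6c2 is a near-identical neighbour with which RSEM has to share reads, so the split between them is uncertain. Ly6c2 differed by 0.79 (SE 0.35) in Treg and 0.85 (SE 0.31) in Tconv, and by -0.06 between cell types.

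Foxp1, a repressor of T cell activation, fell in Tconv from 212, 179, 214 and 234 CPM to 98.6, 115, 81.6 and 109 CPM, a log2 difference of -1.05 (SE 0.14, edgeR adjusted p = 0.00833). In Treg it stayed between 106 and 141 CPM in all 6 libraries, with a difference of -0.01 (SE 0.16). The difference between cell types was 1.05 (SE 0.21), and its adjusted p was 0.0356 in the fit of 25 libraries. Ccr7 fell in Tconv from 738, 729, 581 and 746 CPM to 150.4, 309, 102 and 134 CPM (log2 -2.01, SE 0.29, edgeR adjusted p = 0.0114). In Treg Ccr7 lay at 144, 150.3 and 225 CPM in Ctrl and 104, 130.4 and 151 CPM in icKO, and the difference between cell types was 1.58 (SE 0.43). Il6ra fell in Tconv by 1.62 on the log2 scale (SE 0.30) and differed by 0.23 (SE 0.34) in Treg. Klf2, Tcf7 and Lef1 had values between cell types of 1.31, 1.08 and 0.73, with Tconv differences of -1.10, -0.998 and -0.70 and Treg differences of 0.21, 0.08 and 0.04. Actn1, an actin cross-linker listed here as a naive T cell gene, had 1.79. Il7r, the IL-7 receptor, had 0.50 and did not reach an unadjusted p under 0.05, and Myb had the opposite sign at -2.32.

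The summed level of the 24 naive genes shows the same pattern by library. It was 7719 to 9484 CPM in Tconv Ctrl and 4207 to 5639 CPM in Tconv icKO, which do not overlap. In Treg it was 3781 to 4800 CPM in Ctrl and 4052 to 5434 CPM in icKO. The Tconv icKO libraries therefore reached the range of the Treg libraries.

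**Figure D2:**
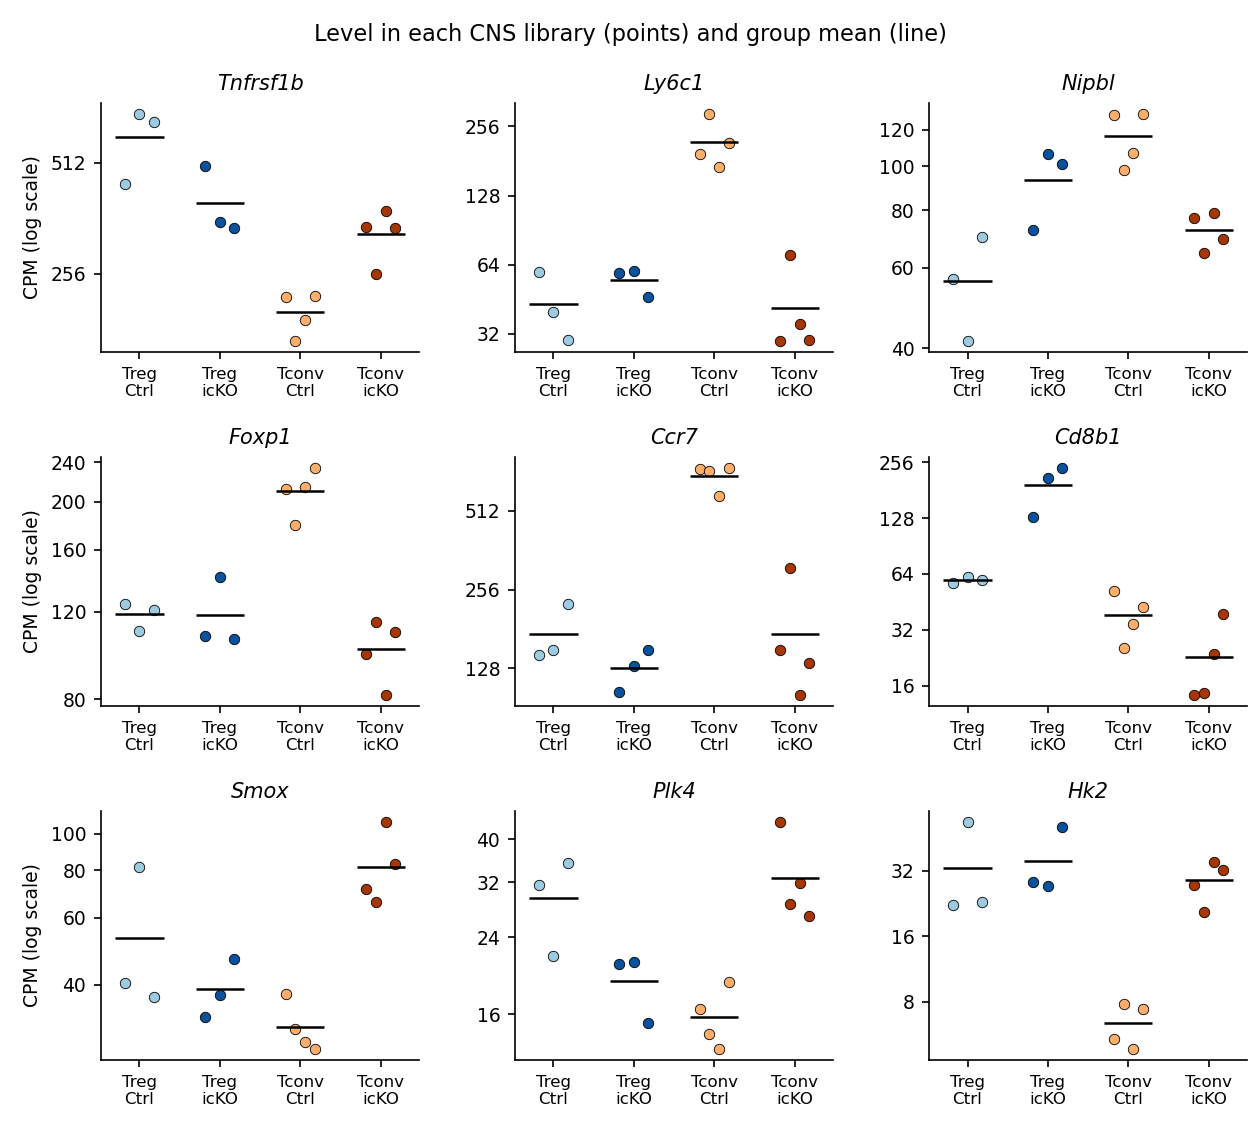
CPM (log axis) of 9 genes in each of the 14 libraries, by group, with a line at each group's mean. Tconv icKO lies below Tconv Ctrl for Ly6c1, Nipbl, Foxp1 and Ccr7 and above it for Tnfrsf1b, Smox, Plk4 and Hk2, while the Treg groups lie apart for Nipbl, Cd8b1 and Plk4.

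Genes of the cytosolic ribosome, the machine that translates mRNA, also lay on the positive side. All 73 had a positive value, and 64 were positive at an unadjusted p under 0.05 (87.7% against 5% of all genes). The median was 0.82 between cell types, 0.37 in Treg and -0.44 in Tconv, so these genes leaned in opposite directions. In Treg 13 were higher at an unadjusted p under 0.05 (background 1.66%), and in Tconv 45 were lower (61.6% against 6.41%). None of the 73 was called by edgeR in Treg or Tconv in the fit of 14 libraries, 11 fell in Tconv in the fit of 25, while in the comparison of cell types the fit of 25 called 0 of them and DESeq2 14. Their summed level was 18140 to 27900 CPM in Treg Ctrl, 26500 to 31740 CPM in Treg icKO, 41770 to 49170 CPM in Tconv Ctrl and 26140 to 38240 CPM in Tconv icKO. Without the 5 Tconv libraries the median was 0.58, and fewer members passed an unadjusted p of 0.05, with 1 Tconv icKO library left.

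Rplp1, an acidic protein of the ribosomal stalk, was at 368, 241 and 357 CPM in Treg Ctrl and 392, 462 and 447 CPM in Treg icKO. In Tconv it was at 603, 568, 608 and 645 CPM in Ctrl and 470.4, 337, 498 and 408 CPM in icKO. Neither pair of groups overlapped, and the shifts were opposite. The difference was 0.43 (SE 0.17) in Treg and -0.50 (SE 0.15) in Tconv, and 0.93 (SE 0.23) between cell types. Over all genes 34 (0.269%) lay higher in Treg icKO and lower in Tconv icKO with no overlap in either cell type, and 11 of these were ribosomal protein genes. Rps19 and Rpl9 of the small and large subunit had 0.86 (SE 0.21) and 1.10 (SE 0.27). Outside the list, Rps27rt, a retrogene copy of Rps27 whose reads RSEM must divide with its parent, had 1.31 (SE 0.28) and was called in the fit of 25 libraries (edgeR adjusted p = 0.0279).

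Short transcripts as a class leaned the same way. The median between cell types was 0.20 for genes in the lowest quartile of length and -0.15 in the highest. Among 112 other genes no longer than the median ribosomal protein gene and at 100 CPM or more in a group, the median was 0.41 between cell types, 0.27 in Treg and -0.16 in Tconv. The part of transcript length or RNA quality in the ribosomal result was not tested. Nop10, a small protein of the RNA-modifying H/ACA particles, and the respiratory subunit Ndufa4 were both called in the fit of 25 libraries, at 1.09 (SE 0.24) and 0.76 (SE 0.19). Of 44 respiratory chain genes 39 were positive, 9 at an unadjusted p under 0.05 (20.5% against 5% of all genes) and 1 negative, with a median of 0.28.

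Glycolysis and hypoxia-response genes lay on the negative side. Of 29 listed genes 28 had a negative value, 12 at an unadjusted p under 0.05 and 0 positive (41.4% against 4.86% of all genes). The median was -0.66, from -0.11 in Treg and 0.48 in Tconv. In Tconv 17 were higher at an unadjusted p under 0.05 (background 6.69%), 2 rose in the fit of 14 libraries (Hk2 and Slc2a3) and 10 rose in the fit of 25. The summed level was 10010 to 11280 CPM in Tconv Ctrl and 14600 to 17660 CPM in Tconv icKO, without overlap, and 11130 to 16750 CPM in Treg Ctrl against 9680 to 15750 CPM in Treg icKO. Without the 5 Tconv libraries the median was -0.56, and fewer members passed an unadjusted p of 0.05, with 1 Tconv icKO library left. Without Treg icKO replicate 3, 19 of the 29 were negative at that p.

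Hk2, the hexokinase that commits glucose to glycolysis in activated T cells, was at 5.36, 7.82, 4.85 and 7.39 CPM in Tconv Ctrl and at 27.6, 20.8, 35.1 and 32.3 CPM in Tconv icKO. In Treg it was at 22.3, 53.6 and 22.9 CPM in Ctrl and 28.5, 27.2 and 51.1 CPM in icKO. All Tconv Ctrl libraries were thus below every other CNS library. Hk2 rose in Tconv by a log2 difference of 2.18 (SE 0.33, edgeR adjusted p = 0.0158) against 0.11 (SE 0.36) in Treg, and the difference between cell types was -2.07 (SE 0.49).

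Slc16a3, the lactate exporter MCT4, was at 20.4, 19.7, 17.4 and 36.1 CPM in Tconv Ctrl and 67.0, 73.6, 130.0 and 101.5 CPM in icKO. In Treg it ranged from 65.1 to 180 CPM in Ctrl and from 33.4 to 164 CPM in icKO. Its difference between cell types was -2.40 (SE 0.65). Slc2a3, the glucose transporter GLUT3, rose in Tconv by 1.03 (SE 0.20, edgeR adjusted p = 0.0494), and Hif1a, the hypoxia-inducible factor that drives many of these genes, differed by 1.51 (SE 0.34) in Tconv and -0.15 (SE 0.38) in Treg. Ldha, which turns pyruvate to lactate, moved less, with -0.07 (SE 0.18) in Treg and 0.34 (SE 0.16) in Tconv.

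The promoters of 4 of these genes are shown because hypoxia-inducible factors and related helix-loop-helix proteins bind E-box-like elements with the core ACGTG, and the members moved together. Each is the 250 bases before a RefSeq transcription start (GRCm38.p6), 5′ to 3′ on the gene's strand, with every ACGTG or its reverse complement CACGT in capitals. The 2 forms overlap where the letters read CACGTG.
Hk2 (chr6:82774455-82774704, minus): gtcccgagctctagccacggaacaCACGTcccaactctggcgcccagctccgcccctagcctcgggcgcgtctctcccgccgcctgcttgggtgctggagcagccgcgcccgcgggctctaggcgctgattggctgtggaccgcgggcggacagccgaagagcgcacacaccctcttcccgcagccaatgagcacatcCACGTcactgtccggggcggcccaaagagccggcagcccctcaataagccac
Slc16a3 (chr11:120948817-120949066, plus): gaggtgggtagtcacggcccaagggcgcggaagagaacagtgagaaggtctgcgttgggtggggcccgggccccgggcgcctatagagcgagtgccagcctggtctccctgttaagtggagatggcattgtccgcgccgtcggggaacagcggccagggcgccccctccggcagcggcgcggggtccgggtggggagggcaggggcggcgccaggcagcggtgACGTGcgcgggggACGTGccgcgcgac
Hif1a (chr12:73907617-73907866, plus): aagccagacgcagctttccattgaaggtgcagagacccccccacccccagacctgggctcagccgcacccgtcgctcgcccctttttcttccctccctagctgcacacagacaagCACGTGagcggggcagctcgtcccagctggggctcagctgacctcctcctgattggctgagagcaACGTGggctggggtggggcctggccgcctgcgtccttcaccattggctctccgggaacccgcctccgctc
Ldha (chr7:46845554-46845803, plus): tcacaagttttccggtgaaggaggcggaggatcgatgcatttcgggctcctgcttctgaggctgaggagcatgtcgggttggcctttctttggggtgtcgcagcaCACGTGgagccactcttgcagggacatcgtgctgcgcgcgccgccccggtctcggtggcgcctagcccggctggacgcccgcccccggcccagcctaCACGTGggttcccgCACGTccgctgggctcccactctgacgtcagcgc
There were 2 matches in Hk2 and in Slc16a3, 3 in Hif1a and 5 in Ldha at the starts shown, counted over both strands. A further RefSeq start of Ldha (chr7:46846832-46847081, plus) had 0. Windows of 300 bases from RefSeq (250 before to 50 after a start) were searched for the core. It stood in 18 of 25 listed glycolysis genes with a promoter entry (72%), against 29.4% of the 9926 tested genes with an entry. The list holds hypoxia-response genes by choice, so its share describes the list and not these data. Over tested genes with an entry, the core stood in 28.8% of those negative and 23.5% of those positive at an unadjusted p under 0.05. Among the listed genes, presence of the core was set beside the values: 5 of 15 with a match in the 250 bases were negative at an unadjusted p under 0.05 (median -0.79), as were 4 of 10 without one (median -0.45). The forkhead letters GTAAACA, looked for because Foxp1 and Foxo1 are forkhead factors, stood in 3 of 20 naive gene promoters (15%) and in 3.08% of all. GTAAACA stood in 2.23% of genes positive and 3.85% of genes negative at an unadjusted p under 0.05. The ACGTG core stood in 2 of the 20 naive gene promoters (10%). A match describes letters only.

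Cell cycle genes leaned to opposite sides in the 2 cell types. All 40 listed genes had a negative value, 13 at an unadjusted p under 0.05 (32.5% against 4.86% of all genes). The median was -1.02, from -0.45 in Treg and 0.53 in Tconv. In Treg 3 were lower (background 1.58%) and in Tconv 10 higher (25% against 6.69%) at an unadjusted p under 0.05. Between cell types edgeR called 0 of the 40 in the fit of 14 libraries and 0 in the fit of 25. Without the 5 Tconv libraries the median was -1.15, and fewer members passed an unadjusted p of 0.05, with 1 Tconv icKO library left. The count negative at that p was 5 of 40 without Treg Ctrl replicate 3 and 21 without Treg Ctrl replicate 2. The summed level overlapped within Treg (2007 to 4544 CPM in Ctrl, 2041 to 2738 CPM in icKO) and within Tconv (1613 to 2935 CPM in Ctrl, 2749 to 4095 CPM in icKO).

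Another 4 genes with roles in cell division, which are not on that list, were called in the fit of 25 libraries: Plk4, Cdca2, Wee1 and G2e3. Plk4, the kinase that starts centriole duplication (chr3:40800019-40816883, plus strand), was at 31.4, 21.7 and 35.3 CPM in Treg Ctrl and 20.9, 21.1 and 15.3 CPM in Treg icKO. In Tconv it was at 16.4, 14.4, 13.4 and 19.0 CPM in Ctrl and 43.8, 28.6, 31.8 and 26.8 CPM in icKO. Neither pair of groups overlapped. The difference was -0.63 (SE 0.26) in Treg and 1.05 (SE 0.23) in Tconv, and -1.68 (SE 0.35) between cell types, with an edgeR adjusted p of 0.288 in the fit of 14 libraries and 0.0295 in the fit of 25.

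Cdca2, which targets protein phosphatase 1 to mitotic chromatin, showed the same arrangement with no overlap in either cell type. It was at 23.6, 18.4 and 32.2 CPM in Treg Ctrl and 12.7, 14.8 and 12.3 CPM in Treg icKO. In Tconv it was at 12.4, 12.5, 12.2 and 14.2 CPM in Ctrl and 25.6, 19.7, 20.0 and 17.7 CPM in icKO. The difference between cell types was -1.59 (SE 0.33). Wee1, the kinase that holds cells out of mitosis, had -1.96 (SE 0.49), and G2e3, an E3 ligase named for its G2 expression, had -2.40 (SE 0.59), both called in the fit of 25 libraries. Among the listed genes, the replication helicase subunits Mcm3, Mcm2 and Mcm5 had -1.05, -0.71 and -1.003, and the mitotic topoisomerase Top2a had -1.58 (SE 0.58). For Mcm3 the groups did not overlap in either cell type, one of 21 genes (0.166%) lower in Treg icKO and higher in Tconv icKO in that way.

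**Figure D3:**
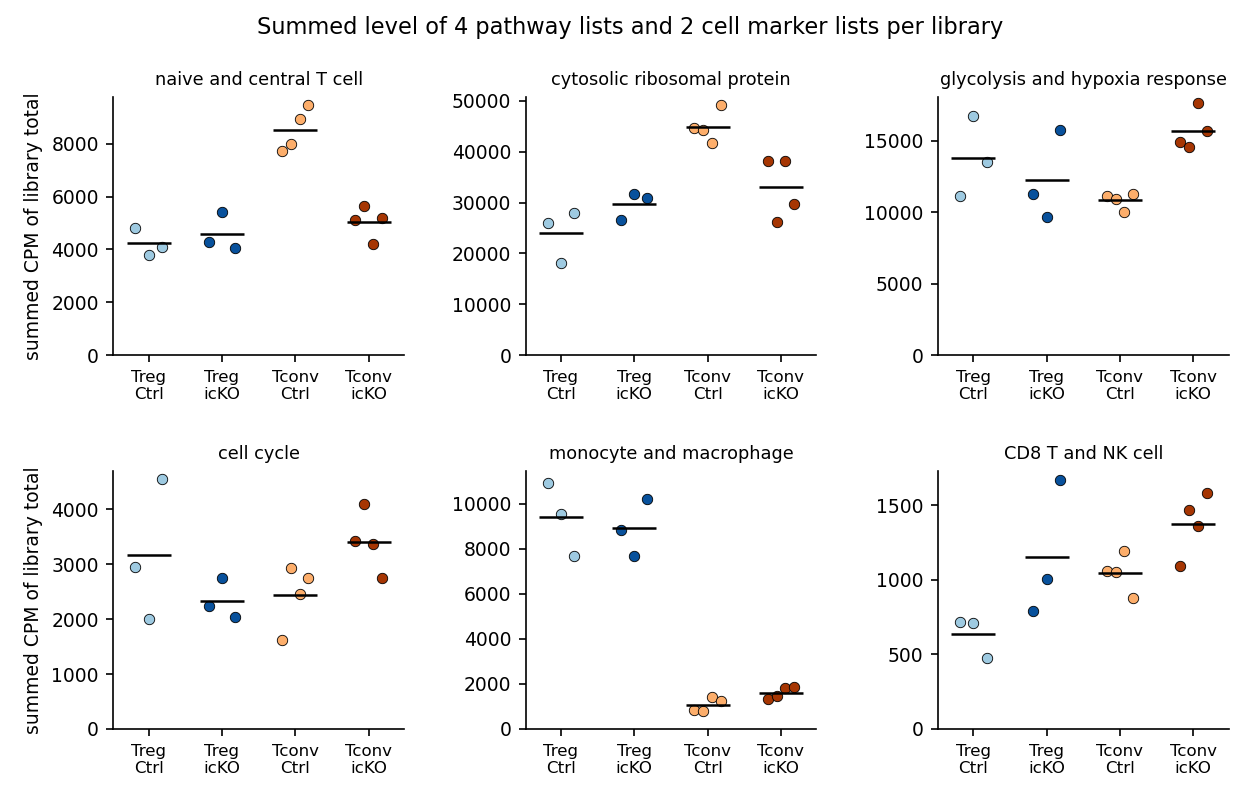
Summed CPM of 6 gene lists in each of the 14 libraries (points), by group, with a line at each mean. Naive and ribosomal sums are lower in Tconv icKO than in Tconv Ctrl and the glycolysis sum is higher, each without overlap, while the monocyte sum separates Treg from Tconv libraries.

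Genes of recent activation and of inflammatory effector function lay on the negative side, with Treg medians near 0 and positive Tconv medians. Of 26 AP-1 and early activation genes 8 were negative at an unadjusted p under 0.05 (30.8% against 4.86% of all genes) and 0 positive (median -0.80, Treg -0.06, Tconv 0.76). Egr1, an immediate-early transcription factor, had -1.47 (SE 0.53), and Dusp6, a phosphatase that damps ERK, -0.79 (SE 0.28). Of 17 Th1 genes 5 were negative (29.4%) and 1 positive (5.88%, near the 5% of all genes), and 10 were higher in Tconv (58.8% against 6.69%). Il18rap, an IL-18 receptor chain, stood at 83.1, 166, 139 and 104 CPM in Tconv Ctrl and at 396, 277, 321 and 306 CPM in icKO, without overlap. In Treg Il18rap ranged from 57.1 to 120.2 CPM in Ctrl and from 26 to 101 CPM in icKO, and the difference between cell types was -1.75 (SE 0.52). Il12rb1, a chain of the IL-12 receptor, had -0.87 (SE 0.30). The Th1 median between cell types was -0.58, and -0.41 without the 5 Tconv libraries, where the AP-1 and early activation median was -0.77.

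Of 20 inflammatory cytokine genes, 18 had a negative value, but 3 did at an unadjusted p under 0.05 (15% against 4.86% of all genes). Their median of -2.29 becomes -1.79 when the 6 members with a group at 0 reads are set to their bound. Ifng differed by 3.04 (SE 0.94) in Tconv and 0.57 (SE 1.01) in Treg, and Csf2, the GM-CSF gene required for EAE, by 2.61 (SE 1.10) and 0.15 (SE 1.19). Their values between cell types, -2.46 (SE 1.35) and -2.46 (SE 1.6), therefore had wide errors. Of 16 IL-1 family genes 6 were negative (37.5%, median -0.90), among them the decoy receptor Il1r2 at -2.59 (SE 0.82). Of 19 chemokine ligands 4 were negative (21.1%) and 1 positive (5.26%, near the 5% of all genes), with Ccl3 at -3.33 (SE 1.38) and Ccl4 at -2.94 (SE 0.91), and Ccl5 at 0.95 (SE 0.43). The chemokine ligand median was -1.16, and -0.20 without the 5 Tconv libraries, where the cytokine and IL-1 family medians were -2.79 and -0.97. Monocyte marker sums were also higher in Tconv icKO (1322 to 1868 CPM) than in Tconv Ctrl (784.5 to 1431 CPM), with overlapping ranges. Ccr2 (186 to 453 CPM in Ctrl, 547 to 684 CPM in icKO) and Ly6c2 (200.5 to 427 and 405.5 to 644.5 CPM) made up much of that sum, while Lyz2 lay at 0 to 8.94 and 0.611 to 8.97 CPM, Ctss at 168 to 313 and 161 to 276 CPM, and the microglia sum at 164 to 473 and 212 to 329 CPM. The part of myeloid RNA in the cytokine and chemokine values was not tested.

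Smox, the spermine oxidase, rose in Tconv from 37.9, 30.7, 28.4 and 27.2 CPM to 71.5, 65.9, 107 and 83.1 CPM, a log2 difference of 1.40 (SE 0.25, edgeR adjusted p = 0.0461). In Treg Smox was at 40.4, 81.7 and 37.2 CPM in Ctrl and 33.0, 37.6 and 46.7 CPM in icKO, where 1 Ctrl library stood high. The difference between cell types was -1.84 (SE 0.38). Pmaip1, which encodes the pro-apoptotic BH3-only protein NOXA, rose in Tconv by 1.12 (SE 0.17, edgeR adjusted p = 0.0152) and differed by -0.14 (SE 0.19) in Treg. Of 15 BCL2 family genes Pmaip1 was the only member at an unadjusted p under 0.05 between cell types. Asns, the asparagine synthetase induced by ATF4, was at 15.65, 21.0, 11.6 and 17.5 CPM in Tconv Ctrl and 59.1, 50.5, 75.9 and 60.1 CPM in Tconv icKO, with a difference between cell types of -2.14 (SE 0.61). Of 27 ATF4 response genes 5 were negative (18.5% against 4.86% of all genes) and 0 positive.

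Of 18 TNF receptor genes 2 were negative (Tnfrsf1b and Tnfrsf9, 11.1% against 4.86% of all genes) and 1 positive (Cd27, 5.56% against 5%) at an unadjusted p under 0.05, which apart from Tnfrsf1b is near the background. Tnfrsf9, the co-stimulatory receptor 4-1BB, was at 56.7, 22.7, 28.2 and 137 CPM in Tconv Ctrl and 207, 142, 341 and 256 CPM in Tconv icKO, without overlap. In Treg Tnfrsf9 spread from 409.9 to 1320 CPM in Ctrl and from 235 to 1371 CPM in icKO, and the difference between cell types was -1.92 (SE 0.89). Cd27, a co-stimulatory receptor lost on terminal differentiation, had 1.19 (SE 0.37), from 0.10 in Treg and -1.10 in Tconv. Of 15 TNF family ligands, Tnfsf8 (CD30 ligand) had 0.63 (SE 0.25) and Tnfsf9 (the 4-1BB ligand) -1.65 (SE 0.70). Of 30 genes of the NF-kB machinery and its targets 5 were negative (16.7%) and 0 positive, led by Tnfaip3, which encodes the feedback inhibitor A20, at -1.50 (SE 0.45).

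Genes named for Treg function differed more in Tconv than in Treg. Of 24 suppressor and effector Treg genes 6 were negative (25% against 4.86% of all genes) and 0 positive (median -0.82), with a Treg median of -0.06 and a Tconv median of 0.65. Fgl2, a secreted suppressor of T cells, was at 54.2, 112.5, 56.9 and 106 CPM in Tconv Ctrl and 331, 198, 284 and 182 CPM in Tconv icKO, and its difference between cell types was -1.598 (SE 0.50). Il2ra, the IL-2 receptor alpha chain CD25, was at 53.5 to 85.0 CPM in Tconv Ctrl and 116.5 to 211 CPM in Tconv icKO, and overlapped between the Treg groups (264 to 463 CPM and 266 to 432 CPM). Its value between cell types was -1.22 (SE 0.36). Ikzf4, the transcription factor Eos, had -1.94 (SE 0.53), and Izumo1r, the folate receptor FR4, 1.22 (SE 0.37). Of the 23 Treg core markers 5 were negative (21.7%) and 3 positive (13% against 5% of all genes), and in Treg 0 differed at an unadjusted p under 0.05 in either direction.

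Cytotoxic lymphocyte genes had a larger median difference in Treg than in Tconv. Of 12 CD8 T and NK cell markers, 7 were higher in Treg icKO at an unadjusted p under 0.05 (background 1.66%), with a median of 1.21 in Treg and 0.17 in Tconv, and their sum was 478 to 717 CPM in Treg Ctrl and 791 to 1671 CPM in Treg icKO. Cd8b1, the beta chain of the CD8 co-receptor (chr6:71322788-71337494, plus strand), was at 57.3, 61.8 and 59.1 CPM in Treg Ctrl and 129.7, 209.9 and 239 CPM in Treg icKO. In Tconv it was at 51.5, 25.6, 34.5 and 42.6 CPM in Ctrl and 14.3, 14.6, 23.6 and 39.0 CPM in icKO. The Treg groups did not overlap and the Tconv groups did. Its difference was 1.70 (SE 0.36) in Treg and -0.75 (SE 0.31) in Tconv, and 2.45 (SE 0.47) between cell types, with an adjusted p of 0.288 in the edgeR fit of 14 libraries and 0.0243 in the fit of 25. Cd8a had 1.55 (SE 0.64) in Treg and -0.01 (SE 0.56) in Tconv, and the cytolytic protein perforin, Prf1, 1.25 (SE 0.54) and -0.65 (SE 0.46). Between cell types 2 of the 12 were positive at an unadjusted p under 0.05 and 0 negative (16.7% against 5% of all genes, median 0.58). In Tconv 2 were higher (16.7% against 6.69%) and 1 lower (8.33% against 6.41%), and the sum was 879 to 1197 CPM in Ctrl and 1096 to 1587 CPM in icKO. Klrc1 rose in Tconv, from 60.2 to 107 CPM in Ctrl to 154 to 244 CPM in icKO. The Treg were sorted as CD4+Foxp3+, and the part of RNA from CD8 T cells in these values was not tested.

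Further genes called in the fit of 25 libraries are described here. Nipbl, which loads cohesin onto chromatin, was at 56.6, 41.6 and 69.96 CPM in Treg Ctrl and 72.5, 106 and 101 CPM in Treg icKO. In Tconv it was at 129.6, 97.8, 107 and 130.0 CPM in Ctrl and 77.0, 64.6, 79.0 and 69.2 CPM in icKO, so that the groups of both cell types stood apart in opposite directions. The difference was 0.74 (SE 0.20) in Treg, -0.68 (SE 0.18) in Tconv and 1.42 (SE 0.27) between them. Atn1, the transcriptional co-repressor atrophin-1, had the same arrangement: 8.06, 9.33 and 9.28 CPM in Treg Ctrl, 13.6, 10.7 and 15.5 CPM in Treg icKO, 24.5 to 36.1 CPM in Tconv Ctrl and 11.8 to 15.3 CPM in Tconv icKO. Its difference between cell types was 1.69 (SE 0.32), and it fell in Tconv (-1.11, SE 0.21, edgeR adjusted p = 0.0494).

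Psenen, a subunit of gamma-secretase, also stood apart in both cell types and had 0.82 (SE 0.19). Sqor, the mitochondrial enzyme that oxidises hydrogen sulfide, fell in Tconv from 7.15, 8.84, 8.72 and 12.1 CPM to 1.48, 1.005, 2.16 and 2.55 CPM and had 2.46 (SE 0.50) between cell types. Mfge8, a bridging protein for apoptotic cells, fell in Tconv by 1.33 on the log2 scale (SE 0.23) and had 1.57 (SE 0.34). Ppp1r9b (the phosphatase scaffold spinophilin) had 1.12, Fbxw8 (an F-box protein) -1.06, Plekha2 -0.83 and Fam53c -0.85, the last with the larger difference in Treg (-0.68 against 0.17). Tmie had 4.37 (SE 1.2) on levels of 0 to 3.29 CPM in Treg and 1.31 to 30.1 CPM in Tconv.

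**Figure D4:**
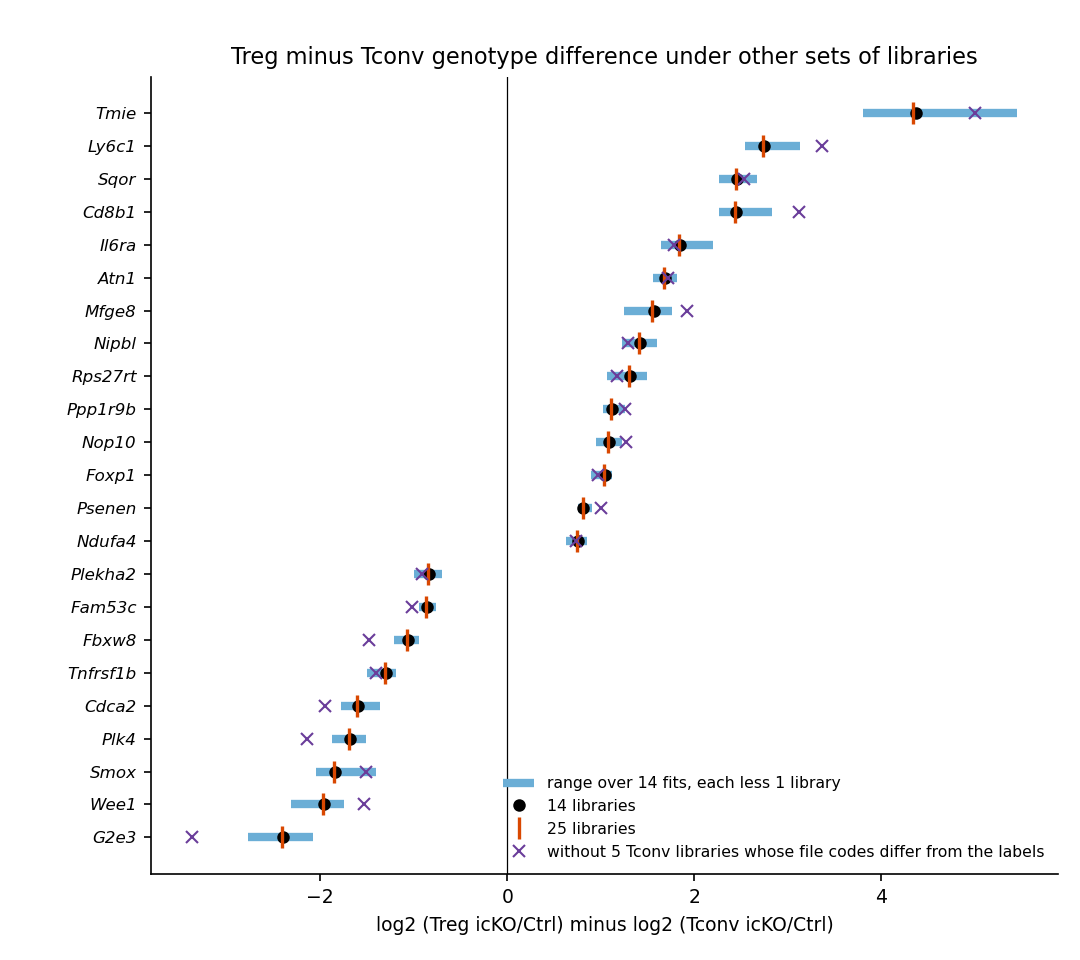
Difference between cell types (log2, horizontal axis) of 23 genes called in the fit of 25 libraries: value in the fit of 14 libraries, in the fit of 25, without the 5 Tconv libraries whose codes disagree with their labels, and as a bar the range over the 14 fits that leave out 1 library each. The sign of each gene is the same in all of these fits, which share libraries with the fit that called the genes.

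All 24 genes had an unadjusted p under 0.05 in each of the 14 fits that left out 1 library, and DESeq2 on the 14 libraries called all 24. These fits reuse the 14 CNS libraries that also entered the fit of 25, so they are not independent support for the 24 genes. Without the 5 Tconv libraries 23 of 24 had an unadjusted p under 0.05 and 11 were called in the fit of 25. Tnfrsf1b was then at -1.40, Ly6c1 at 3.37 and Cd8b1 at 3.12.

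Among the other lists, some kept a negative median without the 5 Tconv libraries. Type I interferon response genes had -0.70 (-0.47 without the 5 libraries), with 23 of 25 below 0, 4 negative (16% against 4.86% of all genes) and 12 higher in Tconv (48% against 6.69%) at an unadjusted p under 0.05, and Ifit1 at -1.27 (SE 0.52). Tissue residency genes had -0.59 (-0.84), with 16 of 18 below 0 and 3 negative (16.7%). Without the 5 libraries 1 gene of each of these lists was negative at that p (4% and 5.56%). Integrins had -0.45 (-0.74, 4 of 17 negative, 23.5%) and genes of the IL-2 receptor and STAT5 -0.30 (-0.29, 2 of 14 negative, 14.3%).

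In other lists the median changed sign or lay near 0. MHC class II presentation genes, which CNS macrophages and B cells express in quantity, had a median of 0.60, which became -0.36 without the 5 libraries. At an unadjusted p under 0.05 with 14 libraries, 2 of 13 were positive (15.4% against 5% of all genes). H2-Ob, a chain of the H2-O chaperone, fell in Tconv (-2.14, SE 0.34, edgeR adjusted p = 0.0171). Inhibitory receptor genes went from 0.25 to -0.53, TNF ligands from -0.42 to 0.12 and interferon-gamma-induced genes from -0.52 to -0.06. Genes of the T cell receptor complex had -0.08, with Cd3e at 0.57 (SE 0.15). Of these 22 genes 3 were positive (13.6% against 5% of all genes) and 1 negative (4.55% against 4.86%). Cholesterol synthesis genes had 0.08, from 0.29 in both cell types. Chemokine receptors had 0.19, with 3 positive and 3 negative of 20 (15% each, against 5% and 4.86% of all genes). Actin cytoskeleton genes had 0.01, with 3 and 3 of 36 (8.33% each). Th17 genes had -0.18, with 1 and 0 of 18 (5.56% and 0%). These lists and BCL2 family genes (0.10) showed no lean to one side.

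**Figure D5:**
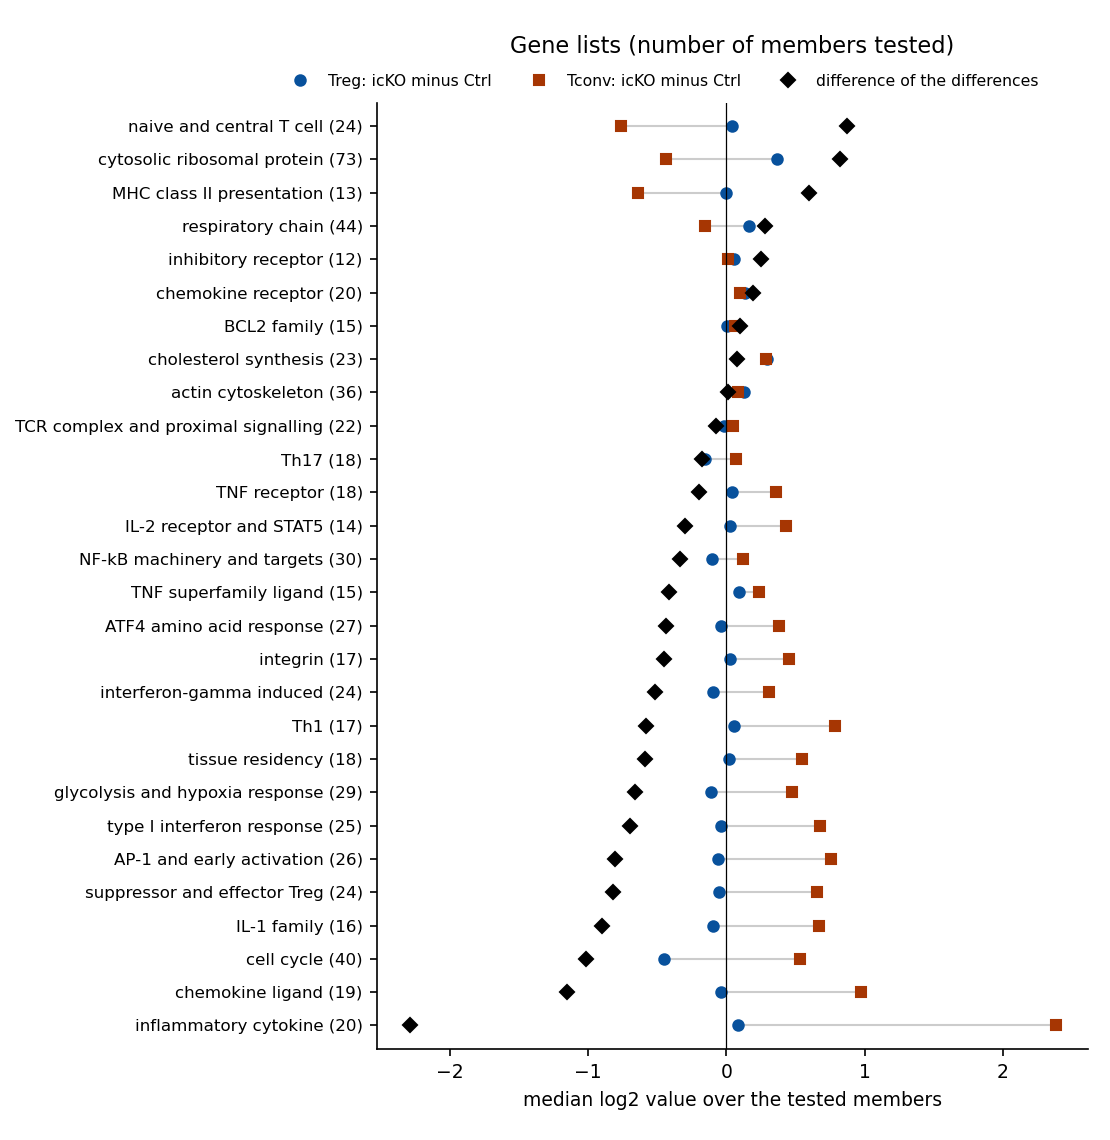
Median log2 difference over the tested members of 28 gene lists: icKO minus Ctrl in Treg, icKO minus Ctrl in Tconv, and the difference between cell types, edgeR fit of 14 libraries. Ribosomal and naive T cell genes lie on the positive side, and cell cycle, glycolysis and inflammatory cytokine genes on the negative side, against a median near 0 for all genes tested.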

How the data were processed

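Polyadenylated RNA of CNS Treg and Tconv was extracted with NucleoSpin RNA XS, and sequenced from SMART-Seq v4 and Nextera libraries, which carry no strand, per the labels' protocols. The submitters' processing notes name FastQC, Trimmomatic, STAR 2.5.3a, RSEM 1.2.28 and mm10. Each deposited table holds the authors' expected counts, estimated by RSEM for 24848 genes. RSEM divides reads shared by near-identical genes, so such genes are uncertain.

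Expected counts were rounded and tested with edgeR 4.0.16 (R 4.3.3) on the 14 CNS libraries: filterByExpr, TMM scaling, 1 mean per group, quasi-likelihood tests of the difference between cell types and of each cell type's difference, and Benjamini-Hochberg adjustment over 12623 genes with a threshold of 0.05. CPM values are scaled by TMM, except sums over marker and pathway lists and marker ranges, which use library totals. They are not per length, so levels are compared between libraries and not between genes. The model was run on simulated counts with differences placed in Treg icKO alone and the spread taken from its own fit to these libraries. That run cannot show how the model behaves with changes in Tconv. Alternatives were DESeq2 1.42.0, limma 3.58.1 with quality weights, other scaling and filters, 25 and 26 libraries, a replicate block and left-out libraries. Total counts of 12.9 to 18.5 M limit genes of a few CPM. Each p measures the spread between the libraries numbered by mouse.

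The members and gene lists were chosen with earlier results of these data known, and the lists are described by counts and medians without a test. The naming rule gave Tnfrsf1b, Foxp3, the 15 genes with the smallest p that reach a mean of 10 CPM, and called list members, of which there were 0. The genes called in the fit of 25 libraries, the 3 members of each list with the smallest p and the other members were named after their values were seen. Positions are from GENCODE on GRCm38 and promoters from RefSeq on GRCm38.p6. A gene that the naming rule gave is not reported here.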

Additional observations from a re-analysis of the deposited data

Results flagged for a closer look

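In 6 of the 24 genes called in the fit of 25 libraries, all Treg icKO libraries lay on one side of Treg Ctrl and all Tconv icKO libraries on the other side of Tconv Ctrl. Over all 12623 genes tested, 34 (0.269%) lay higher in Treg icKO and lower in Tconv icKO in this way, and 21 (0.166%) the reverse. The 24 were called on the difference between cell types, a choice that favours this arrangement. The difference between cell types (log2) was 1.42 for Nipbl, 1.69 for Atn1, -1.68 for Plk4, -1.59 for Cdca2, 1.31 for Rps27rt and 0.82 for Psenen. For each, the edgeR term for that difference had an adjusted p under the threshold in the fit of 25 libraries and above it in the fit of 14. That term also selected the 24 genes, so it is no separate test of the arrangement.

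A single library stood apart from the others of its group in 2 of 52 groups of 4 Tconv libraries looked at over the named genes, where chance gives about 1 in 20. Ly6c1 was at 70.7 CPM in Tconv icKO replicate 2 and at 35.1 CPM or less in the other 3 Tconv icKO libraries. Cdca2 was at 14.2 CPM in Tconv Ctrl replicate 4 and at 12.2 to 12.5 CPM in the other 3 Tconv Ctrl libraries.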

How the results depend on the processing

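Calls between cell types numbered 0 in the edgeR fit of 14 libraries, 24 in the fit of 25, 113 by DESeq2 and 13 without the 5 Tconv libraries whose codes disagree with their labels (1 positive and 12 negative), with 0 to 4 over the fits less 1 library. Other scaling, filters, limma, 26 libraries and the block gave 0. Tconv calls numbered 29, and 419 with 25 libraries, 12 with 26, 19 with DESeq2's size factors, 422 by DESeq2, 270 by limma, 10 with the replicate block, 102 from Tconv libraries alone and 5 to 53 over the fits less 1 library. Treg calls numbered 0 to 1 over the fits less 1 library. The 24 calls of the fit of 25 became 71 without the 5 libraries and ran from 0 to 263 over the fits less 1 library. These causes were not tested.

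List counts at an unadjusted p under 0.05 without the 5 libraries were 6 for naive, 10 for ribosomal, 5 for glycolysis and 2 for cell cycle genes, with 1 Tconv icKO library left. The cell cycle count was 21 with 25 libraries and 7 with 26. Over the fits less 1 library the counts ran from 9 to 16, 50 to 70, 8 to 19 and 5 to 21, and Tnfrsf1b from -1.50 to -1.19. Of the 26 genes recomputed under every setting, 0 changed direction, 24 passed the threshold with 25 libraries, 25 by DESeq2 and 2 without Tconv icKO replicate 2. The 24 are the genes that the fit of 25 libraries called, and the settings share libraries with that fit.

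Replicate numbers did not pair the samples: 19 same-numbered pairs had correlations of -0.209 to 0.18, and 2 of 14 libraries correlated best with a library of their own number. Codes in the deposited names are also shared between Treg and Tconv libraries, and pairing by these codes was not tested or modelled. The code of Treg Ctrl replicate 3 is shared by both Tconv Ctrl replicate 1 and Tconv icKO replicate 4. With the replicate block there were 0 calls between cell types and 10 in Tconv.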
